A study of Rattus norvegicus with 65 samples.

Results

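NRF2 and its best known target genes were followed in heart muscle cells exposed to drugs. The 9 genes described are the regulators Nfe2l2 and Keap1 and the enzyme genes Gclc, Gclm, Gsr, Nqo1, Txnrd1, Srxn1 and Hmox1. They were chosen by symbol, by their known place in the pathway and not by a threshold on their values, and all 9 were found among the 14554 genes of the count table. The cells were primary neonatal rat cardiomyocytes, prepared from newborn rat hearts, whose polyA RNA was sequenced. Before plating in 12-well plates the cells of several litters were pooled, and they were serum starved before exposure, so the libraries are parallel cultures of 1 cell preparation and their p-values measure the spread between cultures, not between animals. 10 mM 5-fluorouracil (5FU) was given with 1% DMSO and compared with DMSO1, the same share of DMSO alone. 2.5 mM acetaminophen (Ace) and 1.25 μM doxorubicin (Dox) were given with 0.25% DMSO and compared with DMSO2, that share of DMSO alone, so Ace and Dox share their controls. Each condition was sampled at 6 and 24 hours. The libraries number 65: Ace at 6 hours and all DMSO1 and 5FU groups have 6 per group, and the remaining groups (Ace at 24 hours, Dox and DMSO2 at either time) have 7.

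NRF2, the protein of Nfe2l2, is a transcription factor that in unstressed cells is bound by KEAP1 and passed to a ubiquitin ligase for degradation. When electrophiles or oxidants modify cysteines of KEAP1, newly made NRF2 escapes and, paired with a small MAF protein, binds antioxidant response elements near genes for glutathione synthesis, the thioredoxin system, quinone reduction and heme breakdown. Because this control acts on the protein, the transcript of Nfe2l2 need not follow NRF2 activity, and only transcripts were measured here.

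The total estimated count per library ran from 14332827 to 25738297, and the lowest count of any of the 9 genes in any library was 38 (Srxn1). Levels are given as CPM, the counts scaled to a common library total and corrected by TMM factors, with the lowest, median and highest library of a group. They are compared between groups for 1 gene and not between genes, because they are not divided by transcript length. Differences are log2 fold changes from edgeR's quasi-likelihood test with Benjamini-Hochberg adjustment over all genes (FDR), and a gene was called at an FDR below 0.01. All 8 cardiomyocyte markers were detected, and no library had any of them at 0. In bulk RNA, fewer cells of a type and less RNA per cell cannot be told apart. Markers of other cells moved with treatment: summed fibroblast marker CPM was 15099 to 18894 in DMSO2 at 24 hours, 7249.5 to 9277 with Ace and 1917 to 4064 with Dox, and it was 9972 to 19903 in DMSO1 at 24 hours against 5166 to 5837 with 5FU. All 8 fibroblast markers were called lower in each of these 3 comparisons. Summed cardiomyocyte marker CPM at 24 hours was 12111 to 16887 with Dox against 36393 to 48496 in DMSO2, with 7 of 8 markers called lower, and 24173 to 26188 with 5FU against 34183 to 41344 in DMSO1, with 5 of 8 lower and 1 higher. The median summed level of smooth muscle and pericyte markers was 2888 CPM with Dox at 6 hours against 1047 CPM in DMSO2, with 4 of 7 called higher and 2 lower, and 1436 CPM at 24 hours against 837 CPM, with 3 called in each direction. That of red cell markers was 108 CPM with Dox at 24 hours against 16.6 CPM in DMSO2, with 3 of 3 measured genes called higher. Endothelial markers had a median of 98.6 CPM with Dox at 6 hours against 262 CPM in DMSO2. Fibroblast markers were called lower at 6 hours for 2 of 8 genes with 5FU and 6 of 8 each with Ace and Dox. Of all genes 24.5%, 15.2% and 32.7% were lower at 6 hours with 5FU, Ace and Dox, and 31.5% were higher with Dox. At 24 hours 27.8%, 19.1% and 41% were lower with 5FU, Ace and Dox, and 28% and 40.4% were higher with 5FU and Dox. The fibroblast count with 5FU at 6 hours and the smooth muscle counts with Dox at 24 hours were near these shares. The part of these markers in the results on NRF2 genes at either time was not tested. Single libraries also stood apart in the levels of a member or of a marker list: DMSO1 at 6 hours library 3, DMSO2 at 6 hours library 2, DMSO1 at 24 hours library 1, 5FU at 6 hours library 1, Dox at 6 hours libraries 4 and 7 and Dox at 24 hours library 7. Dox at 6 hours library 7 had a summed cardiomyocyte marker level of 35940.3 CPM, where the others had 47318 to 53188 CPM. Libraries are numbered within a group only as names, and several results that rest on these are also given without them.

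Gclm, Txnrd1 and Srxn1 are shown with the DNA before their transcription start, because this is where NRF2 with a small MAF partner is known to bind in many of its targets. The sequences are from RefSeq on the assembly GRCr8 and run from 250 bases before the start to 10 bases after it, and capitals mark the motif. Gclm (the modifier subunit of glutamate-cysteine ligase) lies on the plus strand at chr2:213031885-213032144, Txnrd1 (cytosolic thioredoxin reductase) on the minus strand at chr7:22755895-22756154, and Srxn1 (sulfiredoxin) on the plus strand at chr3:161064562-161064821.
Gclm: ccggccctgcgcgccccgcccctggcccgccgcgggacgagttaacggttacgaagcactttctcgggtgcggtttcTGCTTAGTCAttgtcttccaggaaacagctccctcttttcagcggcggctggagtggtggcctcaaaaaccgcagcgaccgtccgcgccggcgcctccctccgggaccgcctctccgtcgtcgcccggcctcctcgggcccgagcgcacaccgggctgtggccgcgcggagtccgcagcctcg
Txnrd1: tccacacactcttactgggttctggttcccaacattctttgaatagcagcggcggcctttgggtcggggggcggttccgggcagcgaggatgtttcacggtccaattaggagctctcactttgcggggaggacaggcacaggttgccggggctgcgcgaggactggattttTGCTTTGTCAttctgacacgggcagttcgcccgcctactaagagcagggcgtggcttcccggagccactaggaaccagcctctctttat
Srxn1: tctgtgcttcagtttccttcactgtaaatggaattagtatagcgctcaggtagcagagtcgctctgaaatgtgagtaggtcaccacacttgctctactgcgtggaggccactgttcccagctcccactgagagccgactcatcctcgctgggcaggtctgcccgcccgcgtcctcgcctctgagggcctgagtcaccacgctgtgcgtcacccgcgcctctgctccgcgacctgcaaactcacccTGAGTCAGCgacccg
The core of the antioxidant response element, TGACNNNGC, was searched on both strands over the 300 bases of each promoter in the table, which run to 50 bases after the start, and so was its longer form, the same letters followed by an A. In Gclm and Txnrd1 it was read on the opposite strand, as TGACTAAGC and TGACAAAGC, ending 164 and 70 bases before the start. The capitals in both mark the longer form, TGACTAAGCA and TGACAAAGCA on the opposite strand, which 3.0% of all promoters held. Nfe2l2 held the core TGACNNNGC but not the longer form, as TGACGCCGC, beyond the stretch of the kind printed here. Of all 33469 promoters 12.1% held the core TGACNNNGC, so 3 of 7 genes with a promoter in the table is a description and not a result. The capitals in Srxn1 mark a related motif, TGANTCAGC, which was chosen after the sequence had been read and was found in 1.11% of promoters. In Srxn1 it begins 5 bases before the start and runs across it, so it does not lie wholly upstream. Promoters of Gclc, Nqo1 and Keap1 in the table held none of these motifs, which says only that these letters are not in this window. A further promoter of Txnrd1 held none either. The table gave no promoter for Hmox1 and Gsr.

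Over the 6 comparisons of a drug with its control, the enzyme genes moved mostly upward except with Dox at 6 hours, with further drug-specific exceptions. Of the 7 enzyme genes, 4, 6 and 2 were called higher with 5FU, Ace and Dox at 6 hours, and 0, 1 and 3 lower. At 24 hours 5, 6 and 6 were higher and 0, 0 and 1 lower. The counts that follow, with the shares of all genes, are over all 9 genes, Nfe2l2 and Keap1 included. 5FU at 6 hours gave 5 of 9 genes called higher, where 23.4% of all genes were higher and 47.9% were called in either direction. Ace at 6 hours gave 6 higher and 1 lower, where 31.7% of all genes were called, 16.5% higher and 15.2% lower. Dox at 6 hours gave 2 higher and 4 lower, where 64.2% of all genes were called, 31.5% higher and 32.7% lower. At 24 hours 5FU gave 6 higher, where 55.8% of all genes were called and 28% were higher, and Ace gave 7 higher, where 37.2% were called and 18.2% were higher. Dox at 24 hours gave 7 higher and 2 lower, where 81.4% of all genes were called, 40.4% higher and 41% lower, so being called there was common among all genes, and the sizes and directions carry the description. Groups that did not overlap at all, with every treated library beyond every control, were counted too. At 6 hours these were 4 genes higher with 5FU (28.2% of all genes did not overlap in either direction), 6 higher and 1 lower with Ace (24.5%), and 2 higher and 3 lower with Dox (42.6%, of which 19.7% higher and 22.9% lower). At 24 hours they were 5 higher with 5FU (42.9%, of which 22.3% higher and 20.6% lower), 7 higher with Ace (26.9%), and 7 higher and 2 lower with Dox (68.2%, of which 33.6% higher and 34.6% lower). The median log2 fold change of the 9 genes was 0.28, 0.51 and -0.04 for 5FU, Ace and Dox at 6 hours and 0.51, 0.65 and 2.01 at 24 hours, where the median of all genes lay between -0.01 and 0.00 in each comparison.

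**Figure D1:**
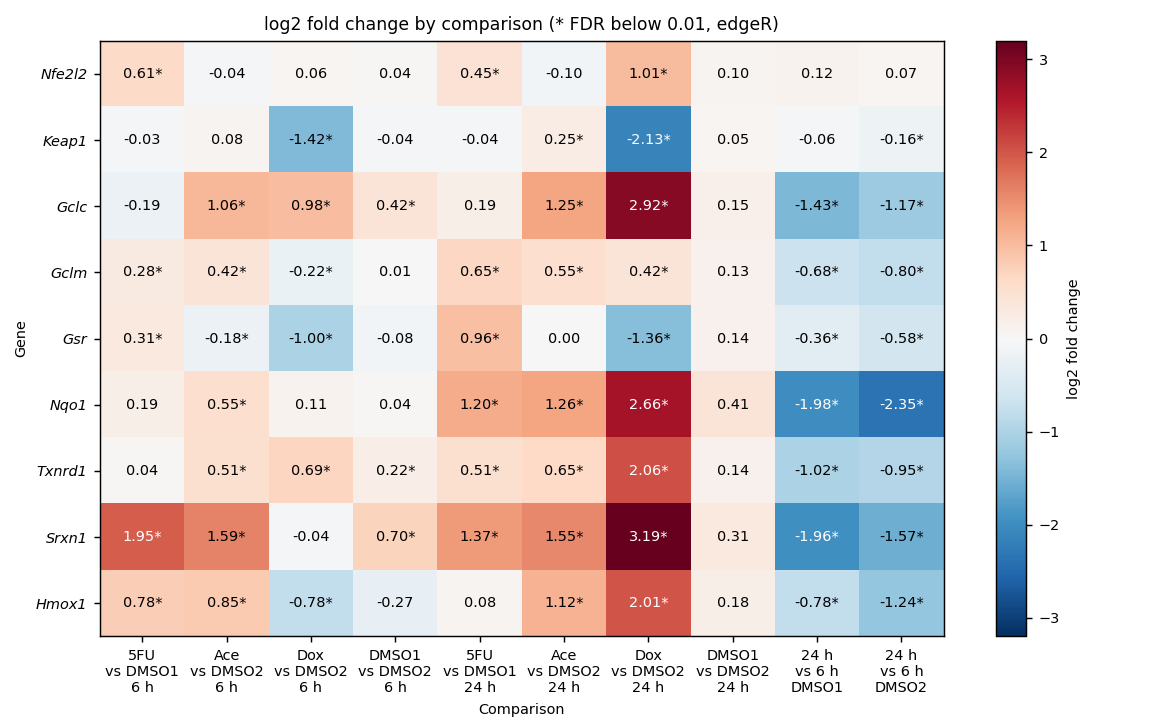
Log2 fold changes of the 9 genes (rows) in 10 comparisons (columns), with red for higher and blue for lower and an asterisk for an FDR below 0.01. The Ace columns hold 6 called increases and 1 called decrease at 6 hours and 7 called increases at 24 hours, while the Dox columns hold both directions, with the widest range at 24 hours, from -2.13 for Keap1 to 3.19 for Srxn1.

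Nfe2l2, the gene of NRF2 itself, rose with 5FU at both times and with Dox only at the later time. At 6 hours its level was 106, 113 and 123 CPM in DMSO1 and 162, 177 and 182 CPM with 5FU. Every 5FU library lay above every control, and the fold change was 1.53 (log2 0.61, SE 0.06, FDR = 1e-12, edgeR). Ace had 102, 109 and 111 CPM and Dox 97.9, 120.0 and 126 CPM against 106, 111 and 114 CPM in DMSO2, and these groups overlapped. The differences at 6 hours were -0.04 for Ace (95% interval -0.16 to 0.08) and 0.06 for Dox (-0.06 to 0.17) on the log2 scale, with neither called. At 24 hours 5FU had 158, 169 and 183 CPM and DMSO1 109, 117 and 168 CPM. The highest control was library 1, which lay inside the 5FU range while the next highest stood at 121 CPM, and the rise was 1.37-fold (log2 0.45, SE 0.06, FDR = 7.7e-09, edgeR), or log2 0.56 without that library. Dox at 24 hours had 207, 234 and 262 CPM against 105, 114 and 125 CPM in DMSO2. These groups were far apart, at 2.02-fold (log2 1.01, SE 0.06, FDR = 1.6e-24, edgeR), and Dox at 24 hours was the highest of the 10 groups, followed by both 5FU groups, which overlapped each other. Ace at 24 hours, at 104, 107 and 114 CPM, was the lowest by median and did not differ by the test (log2 -0.10, 95% interval -0.21 to 0.02). The 7 groups without 5FU and other than Dox at 24 hours had medians between 107 and 120 CPM and overlapped their neighbours in that order.

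Keap1, whose protein holds NRF2 back, fell with Dox and moved little otherwise. In DMSO2 at 6 hours it stood at 85.2, 91.6 and 96.3 CPM, and with Dox at 31.9, 33.5 and 35.8 CPM. The fall was 2.67-fold (log2 -1.42, SE 0.04, FDR = 4.1e-37, edgeR) with a wide gap between the groups. By 24 hours the Dox libraries were at 15.2, 19.5 and 20.8 CPM against 79.1, 80.0 and 84.6 CPM in DMSO2, a 4.39-fold fall (log2 -2.13, SE 0.05, FDR = 7.8e-47, edgeR). With Dox at 24 hours 776 of the 14554 genes had a lower log2 fold change than Keap1. Ace raised Keap1 slightly at 24 hours, to 91.5, 95.2 and 104 CPM (log2 0.25, SE 0.04, FDR = 1.7e-06, edgeR), and all Ace libraries were above all controls. At 6 hours Ace had 90.1 to 102 CPM, overlapping its control (log2 0.08, 95% interval -0.01 to 0.16). With 5FU the level was 80.9 to 89.9 CPM at 6 hours and 78.1 to 84.6 CPM at 24 hours. The intervals of the 5FU effect, -0.12 to 0.06 and -0.13 to 0.05 on the log2 scale, were narrow and included 0. The 8 groups without Dox had medians between 80.0 and 95.2 CPM, with every neighbour overlapping.

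**Figure D2:**
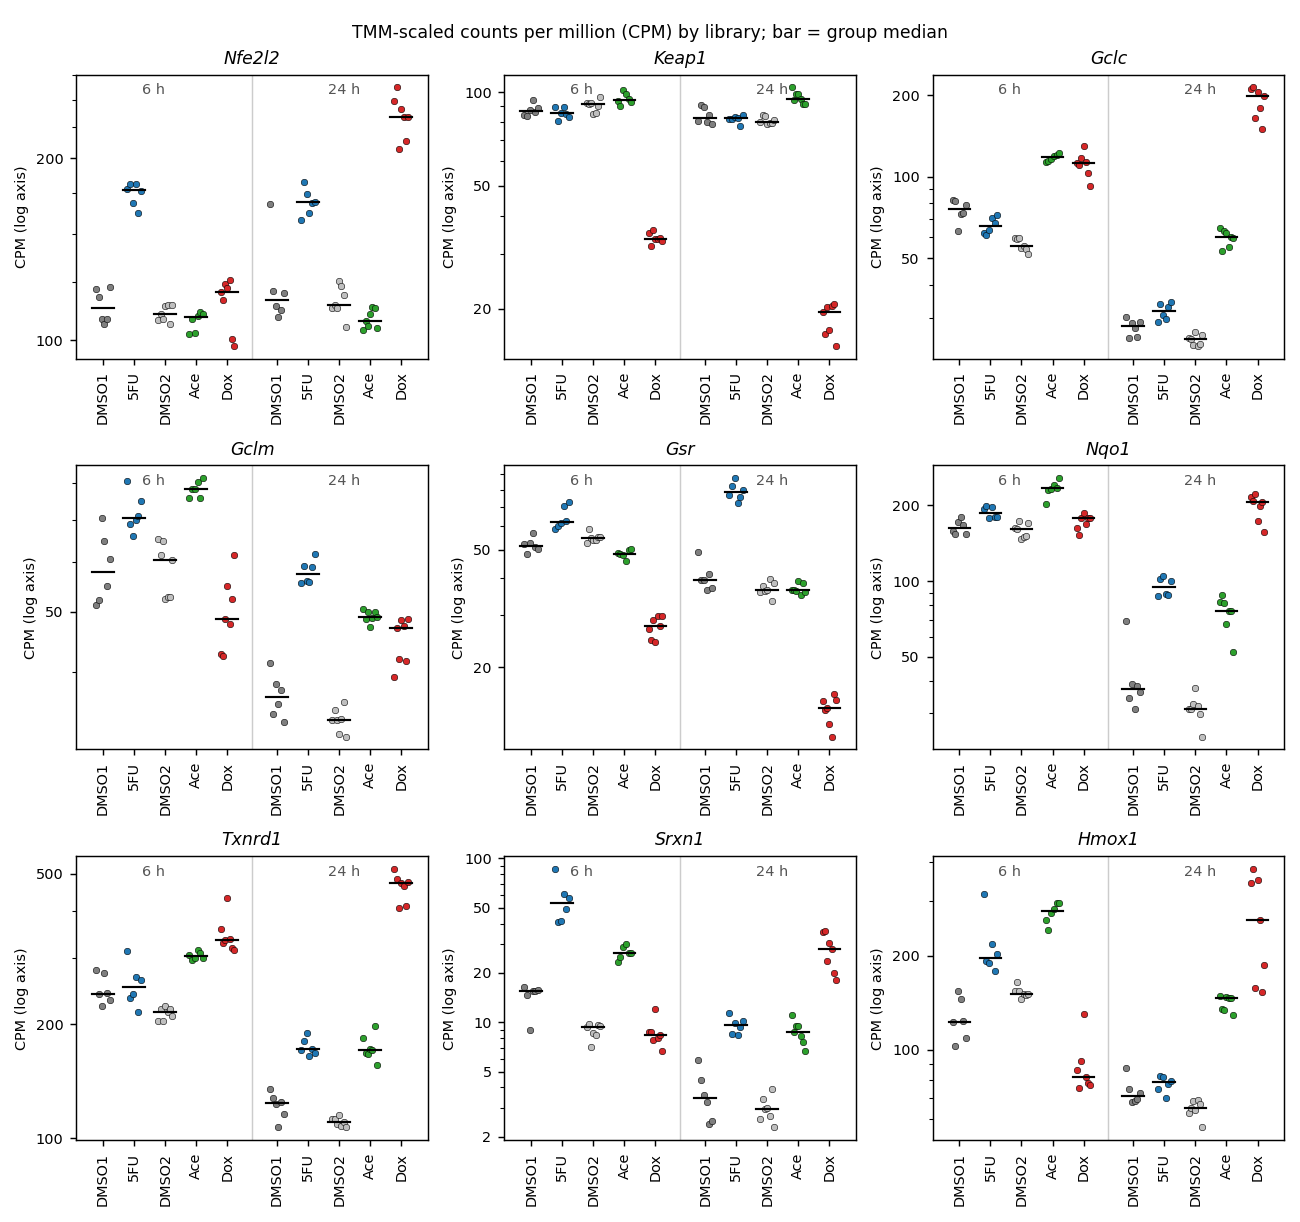
TMM-scaled CPM on a log axis for each gene (panels), with 1 point per library and a bar at the median of each of the 10 groups, 6 hours on the left and 24 hours on the right. Most enzyme genes sit lower in both controls at 24 hours than at 6 hours, Keap1 and Gsr are lowest with Dox, and Srxn1 is highest with 5FU at 6 hours at 41.1 to 86.0 CPM.

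Glutamate-cysteine ligase makes the first and limiting step of glutathione synthesis and is built from a catalytic subunit, the product of Gclc, and a modifier subunit, the product of Gclm. Gclc rose with Ace and Dox and not with 5FU. At 6 hours it had 51.9, 55.5 and 59.2 CPM in DMSO2, 113, 118 and 123 CPM with Ace and 92.1, 112 and 129 CPM with Dox. Both drugs were above all controls, by 2.09-fold with Ace (log2 1.06, SE 0.06, FDR = 1.7e-21, edgeR) and 1.98-fold with Dox (log2 0.98, SE 0.06, FDR = 3.2e-22, edgeR). At 24 hours the control was lower, at 23.8, 25.1 and 26.8 CPM, and Ace had 53.2, 59.7 and 64.8 CPM. Dox had 149.9, 199 and 213 CPM, the highest of all groups. The increases were 2.38-fold with Ace (log2 1.25, SE 0.06, FDR = 1.2e-24, edgeR) and 7.54-fold with Dox (log2 2.92, SE 0.07, FDR = 5e-46, edgeR). With 5FU, Gclc was at 60.9, 65.6 and 72.2 CPM at 6 hours, inside and below the DMSO1 range of 63.1 to 81.7 CPM. At 24 hours it was at 29.1, 32 and 34.5 CPM against 25.5 to 30.4 CPM. The log2 differences, -0.19 ± 0.07 (SE) with an FDR of 0.014 and 0.19 ± 0.07 with an FDR of 0.015 (edgeR), missed the threshold and pointed in opposite directions. Without TMM scaling the 6-hour difference was called lower, at log2 -0.25, as it was without DMSO1 library 3 (log2 -0.23). The 24-hour difference was called higher under filterByExpr (log2 0.21) and without DMSO1 library 1 (log2 0.22).

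Gclm rose with 5FU and Ace at both times and differed between the times with Dox. At 6 hours it had 52.4, 60.4 and 65.2 CPM in DMSO2 and 75.7, 78.3 and 81.4 CPM with Ace, with no overlap (log2 0.42, SE 0.06, FDR = 1.9e-07, edgeR). Dox at 6 hours had 42.6, 48.7 and 61.6 CPM, which overlapped the control range in its upper part. That decrease (log2 -0.22, SE 0.06, FDR = 0.0012, edgeR) was not called when only the groups compared were fitted (FDR = 0.021). 5FU at 6 hours had 65.9, 70.4 and 80.6 CPM against 51.3, 57.8 and 70.3 CPM in DMSO1, overlapping (log2 0.28, SE 0.07, FDR = 0.00023, edgeR). At 24 hours DMSO2 was at 31.6, 33.7 and 35.9 CPM, Ace at 47.2, 49 and 50.4 CPM and Dox at 39.3, 47.1 and 48.6 CPM. Ace and Dox were both above every DMSO2 library, by 1.46-fold (log2 0.55, SE 0.06, FDR = 9.2e-11, edgeR) and 1.34-fold (log2 0.42, SE 0.06, FDR = 2.8e-08, edgeR). The 5FU libraries were higher still, at 55.6, 57.3 and 61.7 CPM against 33.4, 36.6 and 41.5 CPM, a 1.57-fold rise (log2 0.65, SE 0.07, FDR = 1.6e-12, edgeR).

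The transcripts of the paired subunits therefore moved unequally, most of all with Dox. The Gclc to Gclm ratio of CPM within a library, which is described without a test and was chosen after the values had been seen, was 0.859 to 1.06 in DMSO2 at 6 hours (median 0.957). It was 1.45 to 1.59 with Ace (median 1.49) and 1.5 to 2.63 with Dox (median 2.37). At 24 hours it was 0.675 to 0.839 in DMSO2 (median 0.720), 1.09 to 1.31 with Ace (median 1.21) and 3.6 to 5.37 with Dox (median 4.10). The Dox ranges lay above those of DMSO2 at both times. 5FU went the other way, at 0.524 to 0.571 at 24 hours (median 0.557) against 0.686 to 0.873 in DMSO1 (median 0.747). At 6 hours the medians of 5FU and DMSO1 were 0.958 and 1.32, with overlap of the ranges. These are ratios of transcripts not divided by length, so only their change between groups can be read.

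**Figure D3:**
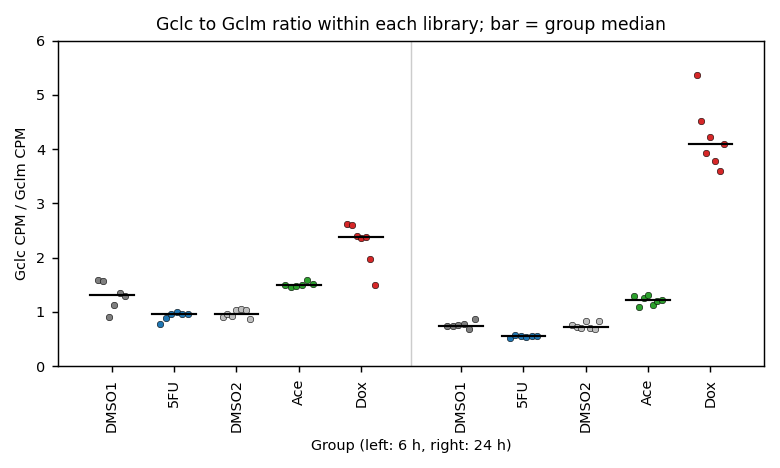
Ratio of Gclc CPM to Gclm CPM within each library (points) by group, with a bar at the group median and a linear axis from 0. Dox at 24 hours stands above all other groups at 3.6 to 5.37, and 5FU at 24 hours is the lowest at 0.524 to 0.571.

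Gsr, glutathione reductase, which regenerates reduced glutathione with NADPH, rose with 5FU and fell with Dox. 5FU at 6 hours had 58.9, 62.2 and 72.5 CPM against 48.5, 51.7 and 56.9 CPM in DMSO1 (log2 0.31, SE 0.06, FDR = 5.8e-06, edgeR). At 24 hours the 5FU libraries were at 71.9, 78.3 and 87.4 CPM and the controls at 36.6, 39.5 and 49.2 CPM. The groups did not overlap at either time, and the later rise was 1.94-fold (log2 0.96, SE 0.06, FDR = 7.6e-22, edgeR). Dox at 6 hours had 24.4, 27.6 and 29.9 CPM against 52.6, 55 and 58.9 CPM in DMSO2, 2.0-fold lower (log2 -1.0, SE 0.06, FDR = 1.3e-24, edgeR). By 24 hours Dox was at 11.7, 14.5 and 16.3 CPM against 33.6, 36.5 and 39.7 CPM, 2.57-fold lower (log2 -1.36, SE 0.06, FDR = 8.4e-31, edgeR). No Dox library reached its controls. Ace had 45.8, 48.5 and 50.5 CPM at 6 hours, a small decrease (log2 -0.18, SE 0.06, FDR = 0.0074, edgeR) that was not called in 9 of 13 fits that each left out a library, DMSO2 library 2 among them (log2 -0.16), nor under filterByExpr (FDR = 0.014). At 24 hours Ace had 35.2 to 39.2 CPM, within the control range, with a 95% interval of -0.11 to 0.11 on the log2 scale.

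Nqo1 encodes a quinone reductase that uses NAD(P)H and is among the most used readouts of NRF2. Its controls fell most with time of the 9 genes, to 24.2, 31.2 and 37.8 CPM in DMSO2 at 24 hours from 147, 160.2 and 173 CPM at 6 hours. Ace had 202, 233 and 255 CPM at 6 hours, above all controls (log2 0.55, SE 0.10, FDR = 5.5e-06, edgeR). Dox at 6 hours, at 152, 178 and 186 CPM, overlapped DMSO2 and was not called (log2 0.11, 95% interval -0.07 to 0.30). 5FU at 6 hours, at 178, 186 and 198 CPM, stood against 153, 163 and 179.9 CPM in DMSO1 and was not called either (log2 0.19, -0.01 to 0.39). At 24 hours all 3 drugs held it above their controls. Ace had 52.2, 76.4 and 87.7 CPM (2.40-fold, log2 1.26, SE 0.10, FDR = 9.8e-17, edgeR). Dox had 157, 206 and 221 CPM (6.32-fold, log2 2.66, SE 0.10, FDR = 1.4e-33, edgeR). 5FU had 87.4, 94.3 and 105 CPM against 31.1, 37.2 and 69.4 CPM (2.29-fold, log2 1.2, SE 0.11, FDR = 4.2e-15, edgeR). No treated library overlapped its controls at that time, DMSO1 library 1 at 69.4 CPM included, and without that library the log2 value with 5FU was 1.41. By level, however, Dox at 24 hours overlapped all 3 drug groups of 6 hours and also DMSO1 and DMSO2 of 6 hours.

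Txnrd1, cytosolic thioredoxin reductase, passes electrons from NADPH to thioredoxin. At 6 hours it had 204, 216 and 223 CPM in DMSO2, 296, 303 and 314 CPM with Ace and 315, 334 and 433 CPM with Dox. Both were above all controls, at log2 0.51, SE 0.06, FDR = 7.5e-10 for Ace and 0.69, SE 0.06, FDR = 4.5e-16 for Dox (edgeR), and without Dox library 4, the highest, the latter was 0.63. At 24 hours DMSO2 had 107, 110.5 and 116 CPM, Ace 156, 171 and 198 CPM and Dox 405, 472 and 514 CPM. The rise with Ace was 1.57-fold (log2 0.65, SE 0.06, FDR = 4.8e-14, edgeR), and that with Dox was 4.16-fold (log2 2.06, SE 0.06, FDR = 2.8e-39, edgeR). With 5FU it was not called at 6 hours, with 216, 252 and 312 CPM against 224, 241 and 279 CPM (log2 0.04, 95% interval -0.09 to 0.17). At 24 hours 5FU had 165, 172 and 189.5 CPM against 107, 124 and 135 CPM, with no overlap (log2 0.51, SE 0.07, FDR = 5.8e-10, edgeR).

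Srxn1, sulfiredoxin, which repairs overoxidised peroxiredoxins, had the largest increase of the 9 genes in all 6 drug comparisons but that of Dox at 6 hours. 5FU at 6 hours had 41.1, 53.1 and 86.0 CPM against 8.96, 15.5 and 16.5 CPM in DMSO1. The rise was 3.86-fold (log2 1.95, SE 0.15, FDR = 2.7e-17, edgeR), and 103 of the 14554 genes had a larger log2 fold change. Ace at 6 hours had 23.5, 26.4 and 30.2 CPM against 7.06, 9.37 and 9.75 CPM in DMSO2 (3.0-fold, log2 1.59, SE 0.15, FDR = 2.6e-13, edgeR), with 79 genes above it. Dox at 6 hours was at 6.70, 8.40 and 12 CPM, around its controls, with log2 -0.04 and a 95% interval of -0.35 to 0.26. The highest Dox library there was library 4, and the next highest had 8.68 CPM. At 24 hours the levels in DMSO1 and DMSO2 were 2.41, 3.43 and 5.86 CPM and 2.28, 2.97 and 3.93 CPM. All 3 drugs were above them without overlap. 5FU had 8.40, 9.61 and 11.4 CPM (2.58-fold, log2 1.37, SE 0.19, FDR = 3.5e-09, edgeR). Ace had 6.63, 8.69 and 11 CPM (2.92-fold, log2 1.55, SE 0.18, FDR = 5e-11, edgeR). Dox had 18, 27.8 and 36.1 CPM (9.14-fold, log2 3.19, SE 0.17, FDR = 1.6e-26, edgeR), and 633 genes had a larger log2 fold change in that comparison. Without Dox library 7 at 24 hours the log2 value was 3.30. Ordered by level, 5FU at 6 hours came first with no overlap with any other group, and Dox at 24 hours and Ace at 6 hours followed and overlapped each other.

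Hmox1, heme oxygenase 1, which opens the heme ring and frees iron, carbon monoxide and biliverdin, is also held down by BACH1 and responds to heat and other stresses. At 6 hours it had 103, 123 and 154 CPM in DMSO1 and 179, 197 and 315 CPM with 5FU. The highest 5FU value was library 1, and the next highest was 219 CPM. All 5FU libraries were above all controls (log2 0.78, SE 0.14, FDR = 2.1e-06, edgeR), and without library 1 the log2 value was 0.63. Ace had 242, 279 and 295 CPM against 146, 151 and 164 CPM in DMSO2 (1.80-fold, log2 0.85, SE 0.13, FDR = 2.5e-07, edgeR). Dox moved it down, to 75.3, 81.7 and 130.5 CPM (1.72-fold lower, log2 -0.78, SE 0.13, FDR = 2.3e-07, edgeR). All Dox libraries were below all controls, including library 4, which stood above the other Dox libraries and without which the log2 value was -0.90. At 24 hours the direction with Dox was the opposite, with 153, 259.8 and 378 CPM against 56.5, 65.1 and 69.3 CPM (4.02-fold, log2 2.01, SE 0.13, FDR = 6.5e-22, edgeR). Ace had 129, 146 and 149 CPM (2.17-fold, log2 1.12, SE 0.13, FDR = 6.9e-11, edgeR). 5FU at 24 hours had 70.4, 78.7 and 82.5 CPM against 68.3, 71.0 and 87.7 CPM, and the groups overlapped (log2 0.08, 95% interval -0.19 to 0.36), with log2 0.14 and no call without DMSO1 library 1. Hmox1 with Dox at 24 hours had the widest spread of the 9 genes in any group in absolute CPM: 4 libraries lay between 260 and 378 CPM and 3 between 153 and 186 CPM.

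The controls themselves changed between 6 and 24 hours, and the enzyme genes all fell. In DMSO1 7 of the 9 genes were called lower, where 27.9% of all genes were lower and 53.8% were called. In DMSO2 8 were called lower, where 25.5% of all genes were lower and 52.6% were called. All 7 enzyme genes were called lower in both controls. Nqo1 fell 3.95-fold in DMSO1 and 5.10-fold in DMSO2 (log2 -1.98, SE 0.11, FDR = 2.1e-24, and -2.35, SE 0.10, FDR = 5.2e-29, edgeR). Srxn1 fell 3.90-fold and 2.98-fold (log2 -1.96, SE 0.18, FDR = 1.1e-14, and -1.57, SE 0.18, FDR = 1.4e-11, edgeR). The log2 changes of the other enzyme genes in DMSO1 and DMSO2 were -1.43 and -1.17 for Gclc, -1.02 and -0.95 for Txnrd1, and -0.78 and -1.24 for Hmox1. They were smaller for Gclm, at -0.68 and -0.80, and for Gsr, at -0.36 and -0.58. Nfe2l2 was not called in either control (log2 0.12, 95% interval -0.01 to 0.24, and 0.07, -0.05 to 0.18), but with library sizes it was called higher in DMSO1 (log2 0.18, FDR = 0.0093, edgeR). Keap1 changed by -0.16 (log2, called) in DMSO2 and was not called in DMSO1 (log2 -0.06, -0.15 to 0.03). Fibroblast markers rose over the same interval, with 8 of 8 called higher in DMSO1 and 5 of 8 in DMSO2, from summed levels of 6495 to 10914 CPM and 9687 to 14458 CPM at 6 hours. Macrophage markers rose too, with 6 of 9 called higher in each control. Of all genes 25.9% were called higher over this interval in DMSO1 and 27% in DMSO2. Summed smooth muscle and pericyte markers went from 1078 to 4332 CPM at 6 hours to 607 to 958 CPM at 24 hours in DMSO1, and their median went from 1047 to 837 CPM in DMSO2. The part of these markers in the fall of the enzyme genes was not tested, and time since treatment and time in culture cannot be told apart.

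DMSO1 and DMSO2 differed by this test for 3 of the 9 genes at 6 hours, and none passed at 24 hours. At 6 hours, where 9.87% of all genes were higher in DMSO1 than in DMSO2 and 6.60% lower, Gclc was 1.34-fold higher (log2 0.42, SE 0.06, FDR = 8e-07, edgeR). Srxn1 was 1.63-fold higher (log2 0.70, SE 0.15, FDR = 0.00039, edgeR), although DMSO1 library 3, at 8.96 CPM, lay within the DMSO2 range. Of all genes 5.07% did not overlap between these controls, and Gclc and Txnrd1 were the members that did not. Without that library the log2 value of Srxn1 was 0.81. Txnrd1 was 1.16-fold higher (log2 0.22, SE 0.06, FDR = 0.0064, edgeR), a call that was lost in 5 of 13 fits that each left out a library, with library sizes in place of TMM factors (log2 0.13, FDR = 0.11, edgeR) and with only the groups compared (log2 0.21, FDR = 0.012, edgeR). Cardiomyocyte markers were called higher for 4 of 8 genes and fibroblast markers lower for 7 of 8 in the same comparison. The median summed level of smooth muscle and pericyte markers was 2736 CPM in DMSO1 against 1047 CPM in DMSO2, with 3 of 7 called higher and 3 lower, and that of endothelial markers was 181 CPM against 262 CPM. The part of these markers was not tested. At 24 hours edgeR called 0 of 9, where 0.433% of all genes were called. At an unadjusted p below 0.05 in edgeR there were 4, but the share of all genes at that looser threshold was not counted. DESeq2 called 1, Nqo1, whose log2 difference was 0.41 ± 0.11 (SE) with an FDR of 0.019 in edgeR. Without DMSO1 library 1 the log2 difference of Nqo1 was 0.20 (FDR = 0.30, edgeR).

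Whether a drug's effect changed between the times was tested as the 24-hour effect minus the 6-hour effect. For Dox all 9 genes passed, 7 toward higher and 2 toward lower, where 34% and 30.8% of all genes did so. Srxn1 and Hmox1 differed most, by 3.24 ± 0.23 (FDR = 1.3e-19) and 2.79 ± 0.18 (FDR = 3.4e-21) on the log2 scale (± SE, edgeR). Nqo1 followed with 2.55 ± 0.14 (FDR = 4.2e-25), then Gclc with 1.93 ± 0.09 (FDR = 1.1e-28, edgeR). Hmox1 and Gclm were called lower than DMSO2 at 6 hours and higher at 24 hours, so the directions of their differences turned. The 6-hour call of Gclm was lost with only the groups compared (FDR = 0.021, edgeR). Its median with Dox was 48.7 CPM at 6 hours and 47.1 CPM at 24 hours, while that of DMSO2 went from 60.4 to 33.7 CPM. Keap1 (-0.71) and Gsr (-0.36) were the genes that moved further down. For Gsr this call was lost with library sizes in place of TMM factors (log2 -0.16, FDR = 0.11, edgeR), a scaling that also moved the median of all genes in this comparison from 0.07 to 0.27. For 5FU 5 of 9 passed toward higher and 1 toward lower, where 20.3% and 19.2% of all genes did. Nqo1 (1.0 ± 0.15, FDR = 6.2e-08, edgeR) and Gsr (0.65 ± 0.08, FDR = 1.5e-09, edgeR) grew most. Hmox1 shrank (-0.69 ± 0.20, FDR = 0.0024, edgeR), a call that was lost without 5FU library 1 of 6 hours (log2 -0.56). For Ace 1 of 9 passed, Nqo1 (0.72 ± 0.14, FDR = 9.4e-05, edgeR), where 5.58% of all genes were higher. Among the others with Ace the unadjusted 95% interval was 0.01 to 0.36 for Gclc, 0.05 to 0.29 for Keap1 and -0.52 to 0.44 for Srxn1. With only the groups compared, Hmox1 (log2 0.27, FDR = 0.0026, edgeR) and Gsr (log2 0.18, FDR = 0.0096, edgeR) were called higher too. Keap1 was called higher with library sizes (log2 0.26, FDR = 0.0061, edgeR).

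**Figure D4:**
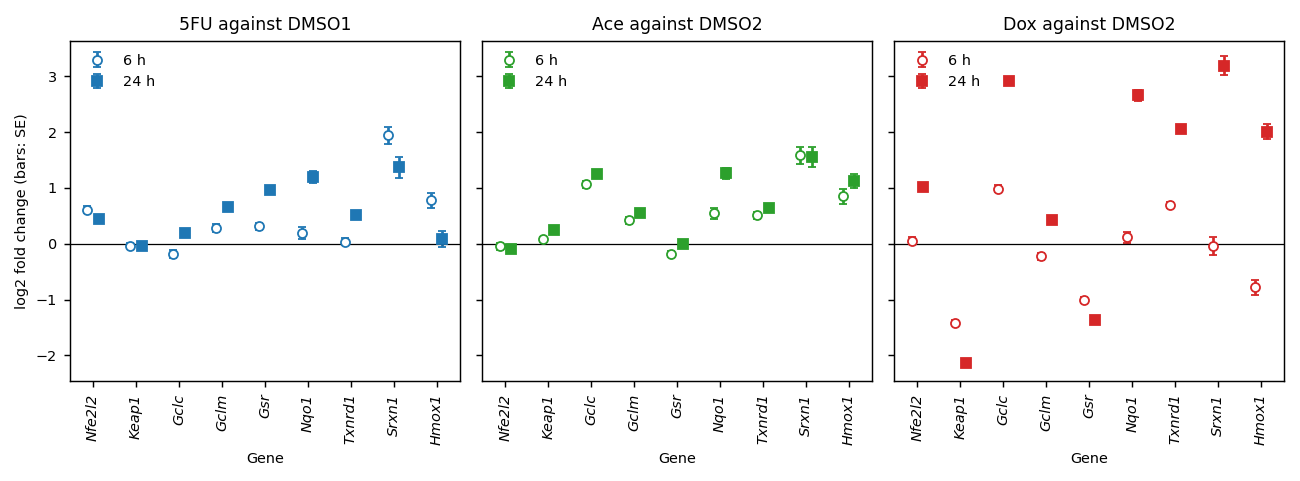
Log2 fold changes of the 9 genes against the drug's own control at 6 hours (open circles) and 24 hours (filled squares) for 5FU, Ace and Dox (panels), with bars for the standard error. With Ace the values of both times lie near each other except for Nqo1, while with Dox Hmox1 goes from -0.78 to 2.01 and Srxn1 from -0.04 to 3.19.

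The drugs were also compared with one another. Dox and Ace share a control and a DMSO share, so their libraries were compared directly. At 6 hours 1 of 9 genes was higher with Dox and 6 lower, where 30.6% and 31.4% of all genes were. Srxn1 and Hmox1 were each 3.10-fold lower with Dox than with Ace (FDR = 1.2e-14 and 5.2e-17, edgeR). Keap1 was 2.82-fold lower (FDR = 1.5e-37, edgeR). Gclc did not differ between them by the test (log2 -0.08, 95% interval -0.20 to 0.04) but was called lower with Dox when library sizes replaced TMM factors (log2 -0.20). Txnrd1 was called higher with Dox (log2 0.19, SE 0.06, FDR = 0.0065, edgeR), but the call was lost without Dox library 4 (log2 0.12), with library sizes (log2 0.06, FDR = 0.38, edgeR) and with only the groups compared (log2 0.18, FDR = 0.019, edgeR). At 24 hours 6 genes were higher with Dox than with Ace and 2 lower, where 40.7% and 39.9% of all genes were. Gclc was 3.17-fold, Srxn1 3.13-fold and Txnrd1 2.65-fold higher (FDR = 2.1e-34, 6e-16 and 6.1e-31, edgeR). Gclm was not called, at log2 -0.13 (95% interval -0.25 to -0.00443), but was called lower with Dox when only the groups compared were fitted (log2 -0.15, FDR = 0.0095, edgeR).

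5FU has its own control, so its effect was compared with that of the other drugs as a difference of fold changes. For Dox against 5FU at 6 hours 2 genes were higher and 6 lower, where 22% and 24.0% of all genes were. Srxn1 was raised with 5FU and not with Dox, with Dox minus 5FU at -1.99 ± 0.22 (SE) on the log2 scale (FDR = 5e-12, edgeR). Gclc was raised with Dox and not with 5FU, with a difference of 1.17 ± 0.09 (FDR = 1.2e-17, edgeR). At 24 hours 6 were higher with Dox and 2 lower, where 35.8% and 35.4% of all genes were. Gsr separated the pair most in the downward direction, at -2.32 ± 0.08 (FDR = 2e-34, edgeR), and Gclc in the upward direction, at 2.72 ± 0.10 (FDR = 6e-35, edgeR). Gclm was not called there, but with only the groups compared it was called lower (log2 -0.25, FDR = 0.0037, edgeR). For Ace against 5FU at 6 hours 2 were higher and 2 lower, where 17.1% and 13.8% of all genes were, with Gclc at 1.25 ± 0.09 (FDR = 2e-17, edgeR) and Nfe2l2 at -0.66 ± 0.09 (FDR = 1e-08, edgeR). The Srxn1 effects of Ace and 5FU differed by -0.36 at 6 hours (95% interval -0.78 to 0.06) and by 0.18 at 24 hours (-0.33 to 0.69), neither of which was called. At 24 hours 3 were higher with Ace and 2 lower, where 19.1% and 18.2% of all genes were. Hmox1 (1.04 ± 0.19, FDR = 7.2e-06, edgeR) and Gclc (1.06 ± 0.10, FDR = 3.9e-14, edgeR) were among the 3 higher with Ace.

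The wider pathway was described by 5 lists with 55 other genes, of which 49 were in the table. Of these 49, 19 were called higher and 8 lower with 5FU at 6 hours, where 23.4% and 24.5% of all genes were. With Ace there were 7 and 3, against 16.5% and 15.2% of all genes, and with Dox 19 and 13, against 31.5% and 32.7%. At 24 hours there were 19 and 4 with 5FU, against 28% and 27.8% of all genes, 19 and 3 with Ace, against 18.2% and 19.1%, and 26 and 14 with Dox, against 40.4% and 41%. The shares with Ace at 6 hours were thus near or below those of all genes. Medians of the log2 fold changes were small, from 0.05 with Ace at 6 hours to 0.28 with Dox at 24 hours.

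Among genes that control NRF2 (12 of 13 in the table), the small MAF partners stood out with Dox at 24 hours. Maff had a log2 fold change of 3.48, Mafk of 1.70 and Mafg of 1.65, and Nfe2l1, the NRF2 relative that controls proteasome genes, of 2.28, all called. Maff was also called at 6 hours with Dox (1.9) and 5FU (0.94). Bach1, the repressor that competes for the same elements, rose with 5FU (0.63) and Ace (0.41) at 6 hours, fell with Dox at 6 hours (-0.34) and rose with Dox at 24 hours (1.07). Sqstm1, whose protein p62 can draw KEAP1 into autophagy, was called higher with all 3 drugs at 24 hours, at 0.61 with 5FU, 0.38 with Ace and 0.37 with Dox. Btrc, a ubiquitin ligase component that marks NRF2 independently of KEAP1, was lower in 5 of the 6 comparisons, at -0.45 with 5FU at 6 hours, -0.26 and -0.22 with Ace and -0.78 and -1.08 with Dox. In all, 8 of the 12 were higher and 3 lower with Dox at 24 hours, where 40.4% and 41% of all genes were.

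In the list of glutathione and NADPH supply (11 of 12), 8 were higher and 2 lower with Dox at 24 hours, where 40.4% and 41% of all genes were, and 5 were higher and 2 lower with Ace, where 18.2% and 19.1% were. Pentose phosphate enzymes Tkt (1.01) and Taldo1 (0.75) rose with Dox at 24 hours. Slc7a11, the cystine carrier and a shared target of NRF2 and ATF4, was called lower in 4 of the 6 comparisons. It was lower with 5FU at 6 hours (-0.66) and 24 hours (-1.60), lower with Ace at 24 hours (-0.32), lower with Dox at 6 hours (-0.75) and higher with Dox at 24 hours only by 0.29. Chac1, which degrades glutathione, was lower with 5FU at 24 hours (-1.63) and with Dox at 6 hours (-1.93). Me1, malic enzyme, was higher with Ace (0.56) and Dox (0.68) at 24 hours and lower with 5FU (-0.59).

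In the list of quinone and thioredoxin defence (10 of 11), 9 were higher with 5FU at 6 hours and 7 at 24 hours, where 23.4% and 28% of all genes were higher, and none was called lower. With Ace 1 was higher at 6 hours and 6 at 24 hours, where 16.5% and 18.2% of all genes were, and none was called lower. With Dox the 6-hour counts were 7 higher and 2 lower, where 31.5% and 32.7% of all genes were. By 24 hours 6 members were higher and 2 lower with Dox, where 40.4% and 41% of all genes were. Ephx1, microsomal epoxide hydrolase, rose most with Dox at 24 hours (3.02) and was also higher with 5FU (1.60) and Ace (1.09). Txn1, thioredoxin, was higher with all 3 at 24 hours, at 0.41 with 5FU, 0.51 with Ace and 1.18 with Dox. Prdx1, a peroxiredoxin, was called higher in all 6 comparisons, between 0.22 with Ace at 6 hours and 0.68 with Dox at 24 hours. Txnip, which binds and blocks thioredoxin, rose with 5FU (1.32 at 6 hours and 0.94 at 24 hours) and fell with Dox (-3.07 and -2.22). Osgin1 was higher with 5FU at 6 hours (0.72) and Ace at 24 hours (0.68) and lower with Dox at 6 hours (-1.98). Nqo2, the relative of Nqo1, fell with Dox at 24 hours (-1.61), opposite to Nqo1.

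In the list of heme and ferritin handling (7 of 10), Ftl1, ferritin light chain, was higher in 5 of the 6 comparisons, with 0.48 and 0.67 for 5FU, 0.51 and 0.67 for Ace and 0.28 for Dox at 24 hours. Blvra, biliverdin reductase A, which acts after heme oxygenase, was called only with Dox at 24 hours (-1.49). Blvrb was also lower with Dox at 24 hours (-0.74), but higher with 5FU at 6 hours (0.28) and with Ace at 24 hours (0.22). Alas1 was higher with Dox at 6 hours (0.59) and 24 hours (1.13). In the list of conjugation and export (9 of 9), 4 were lower and 1 higher with Dox at 24 hours, where 41% and 40.4% of all genes were. The share that fell was near that of all genes, and the share that rose was below it. Mgst1 fell by 1.73 and Gstm1 by 0.95 on the log2 scale, while Gstp1 rose with Dox (0.61) and Ace (0.81) at 24 hours. The transporters Abcc1, Abcc4 and Abcc5 had log2 values between -0.60 and 0.31 in the 6 comparisons.

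**Figure D5:**
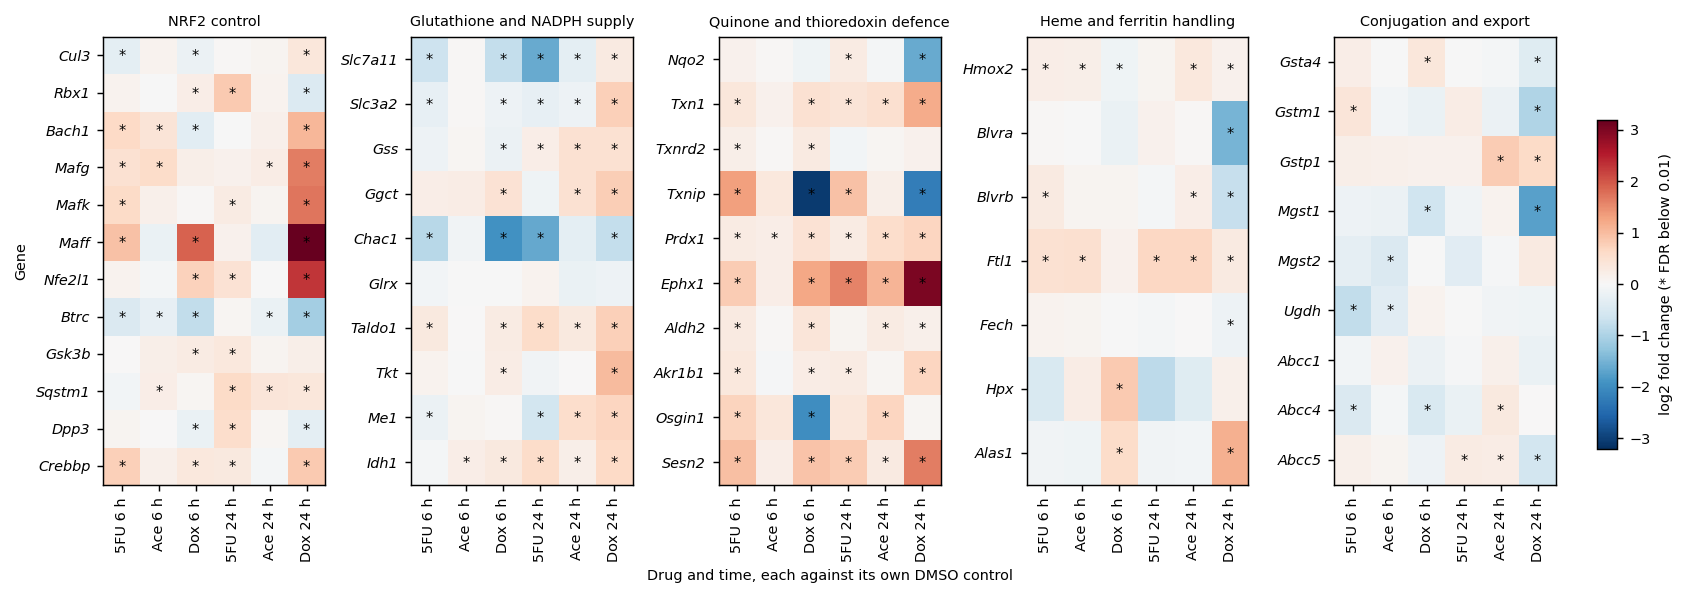
Log2 fold changes of the other pathway genes shown (rows, 5 panels by list) in the 6 comparisons of a drug with its control (columns), with an asterisk for an FDR below 0.01. The deepest red is Maff with Dox at 24 hours (3.48, beyond the end of the colour scale) and the deepest blue is Txnip with Dox at 6 hours (-3.07).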

How the data were processed

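Gene levels came from estimated counts that the authors made with kallisto 0.46.0 and tximport from polyA RNA and deposited as whole numbers, after removing genes with low counts. All 65 columns name a group but no replicate. Per the labels, they form 10 groups of 6 or 7 libraries. Entrez identifiers were named through RefSeq on GRCr8 (14009 of 14554 matched), while the authors used an earlier annotation. Counts were fitted in R 4.3.3 with edgeR 4.0.16 (TMM, factors 0.859 to 1.07; glmQLFit and glmQLFTest, two-sided) in 1 model of the 10 groups with 19 contrasts. The SE is the log2 fold change over the root of F, and 95% intervals use the normal quantile. Over 180 pairs of libraries of a group, the chi-square per gene was at least 2.84, so none was counted as a repeat. The fit was tested on simulated data. Alternatives were DESeq2 1.42.0 (its Wald test and size factors), library sizes, only the groups compared, filterByExpr, other thresholds and leaving out each library. The members, lists and markers were chosen with earlier results of these data known. The text names all members, called genes of the 5 lists, and for each member the 2 genes with a symbol (placeholder LOC symbols left out) and a mean of at least 5 CPM most like it over the group means. A gene of the lists is counted but not reported here by name. The Gclc to Gclm ratio and the motif TGANTCAGC were added after the values or sequences were seen.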

Additional observations from a re-analysis of the deposited data

Results flagged for a closer look

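Within the 90 groups of libraries (9 genes in 10 groups), 9 single values lay apart from the rest of their group by Dixon's criterion, which by chance flags about 1 group in 20. Library 1 of DMSO1 at 24 hours was high for Nfe2l2 (168 CPM, others 109 to 121), Nqo1 (69.4 CPM, others 31.1 to 39.1) and Hmox1 (87.7 CPM, others 68.3 to 74.8). Library 4 of Dox at 6 hours was high for Txnrd1 (433 CPM, others 315 to 358), Srxn1 (12 CPM, others 6.70 to 8.68) and Hmox1 (130.5 CPM, others 75.3 to 92.2). Single values were Gsr in DMSO2 at 6 hours library 2 (58.9 CPM, others 52.6 to 55.3), Srxn1 in DMSO1 at 6 hours library 3 (8.96 CPM, others 14.7 to 16.5) and Hmox1 in 5FU at 6 hours library 1 (315 CPM, others 179 to 219).

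The effects of a drug at its 2 time points differed by the test of the difference itself (edgeR, FDR below 0.01) for 16 gene and drug pairs. With 5FU the 24-hour minus 6-hour log2 differences were 0.38 for Gclc, 0.37 for Gclm, 0.65 for Gsr, 1.0 for Nqo1, 0.47 for Txnrd1 and -0.69 for Hmox1. With Ace the difference was 0.72 for Nqo1. With Dox they were 0.96 for Nfe2l2, -0.71 for Keap1, 1.93 for Gclc, 0.64 for Gclm, -0.36 for Gsr, 2.55 for Nqo1, 1.36 for Txnrd1, 3.24 for Srxn1 and 2.79 for Hmox1. The controls of these effects fell over the same interval for all 7 enzyme genes.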

How the results depend on the processing

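No paired analysis was possible because the columns of the count table carry no replicate numbers. Requiring an absolute log2 fold change of at least 1 left, at 6 hours, 1 gene with 5FU, 2 with Ace and 2 with Dox, and 2 for 5FU and 4 for Ace at 24 hours, 0 for DMSO1 against DMSO2 at 6 hours and 4 for time in each control. It left 1, 0 and 5 genes for the change in effect with 5FU, Ace and Dox, 3 for Dox against Ace and 5 for Dox minus 5FU at 6 hours, and 1 and 2 for Ace minus 5FU at 6 and 24 hours. For DMSO1 against DMSO2 at 24 hours the count of 0 became 1 with the DESeq2 Wald test and with an FDR below 0.1, and ran from 0 to 1 when each library was left out (1 without DMSO1 library 4, Nqo1). The change in the effect of Ace had 2 genes with library sizes, 3 with only the groups compared and 3 at an FDR below 0.1. The motif TGANTCAGC was in 1 gene. Signs reversed for uncalled differences alone. With library sizes these were Txnrd1 -0.038 with 5FU at 6 hours, Nfe2l2 -0.098 and Nqo1 -0.042 with Dox at 6 hours, Gsr 0.059 with Ace at 24 hours, Nfe2l2 -0.044, Gclm -0.066 and Nqo1 -0.037 between the controls at 6 hours, Nfe2l2 -0.0016 over time in DMSO2, Keap1 0.067 in the change with 5FU, Nfe2l2 0.035 and Srxn1 0.053 in that with Ace, and Nfe2l2 -0.023 for Dox against Ace at 6 hours. Gsr with Ace at 24 hours was 0.0051 with only the groups compared and 0.0068 under filterByExpr, and the change of Keap1 with 5FU was 0.0025 and 0.0048. Leaving out each library reversed Gclm between the controls at 6 hours (-0.043 to 0.053), Nfe2l2 between them at 24 hours (-0.012 to 0.13), Gsr with Ace at 24 hours (-0.022 to 0.018), Keap1 with 5FU at 24 hours (-0.051 to 0.00059) and its change (-0.025 to 0.026), Srxn1 with Dox at 6 hours (-0.14 to 0.010) and in the change with Ace (-0.11 to 0.047), Txnrd1 with 5FU at 6 hours (-0.030 to 0.079), and Nqo1 (-0.14 to 0.14) and Srxn1 (-0.0087 to 0.26) in Ace minus 5FU at 24 hours. The causes were not tested. Library sizes moved the median of all genes from 0.00 to -0.15 with Dox at 6 hours.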

Other observations

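Genes whose group means of log2 CPM were most like those of a member over the 10 groups, among 10564 genes compared, are given as a description and not as evidence of shared control. They were Tiprl (Pearson r = 0.996) and Ptcd2 (0.994) for Keap1, Ncald (0.990) and Tefm (0.979) for Gsr, and Nrip3 (0.986) and Rfc5 (0.985) for Txnrd1. For Gclc they were Relt (0.976) and Hdgfl2 (0.973), for Nfe2l2 Klf9 (0.969) and Nfx1 (0.967), and for Nqo1 Fam76a (0.969) and Rbm28 (0.961). Srxn1 was nearest to Mars2 (0.968) and Tipinl1 (0.964), Gclm to Dpf1 (0.938) and Rcc1 (0.925), and Hmox1 to Phaf1 (0.921) and Fkbp5 (0.906). None of these genes was a member or on a pathway list. The 10 points share the time points and the cell preparation.

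Srxn1 and Hmox1 varied between the Dox libraries at 24 hours. Libraries 1, 2 and 4 had 343, 378 and 349 CPM of Hmox1 and 35.6, 36.1 and 30.4 CPM of Srxn1. Libraries 3, 6 and 7 had 158, 153 and 186 CPM of Hmox1 and 23.6, 19.9 and 18 CPM of Srxn1. Nqo1 did not order these libraries in the same way, with 220.8 CPM in library 3 and 173 CPM in library 4. Library 7 also had the lowest summed fibroblast, smooth muscle and cardiomyocyte marker levels of this group.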
